A study of Drosophila melanogaster with 12 samples.

Results

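The genotype by temperature contrast asked of every probe set whether the difference between mutant and wild-type flies was the same at both growth temperatures. Its value is the S284Y minus WT difference at 30C less that at 25C, on the log2 scale, so a positive value means that the mutant stood relatively higher at 30C than at 25C. All 12 of the 12 arrays of the series entered it, 3 in each of 4 groups named by the sample titles: S284Y flies at 25C, S284Y flies at 30C, WT flies at 25C and WT flies at 30C. Each array carried total RNA of whole Drosophila melanogaster pooled from 5 males and 5 females. S284Y flies are mutant in dU2AF50, the large subunit of the splicing factor U2AF, whose gene is U2af50. The labels call 25C permissive and 30C restrictive for the mutant, and call the other flies dU2AF50 wild type. Age, strain background and the time spent at each temperature are not given in the sources used here, and nothing says that the replicates came from separate cultures, so p-values measure only the spread between these arrays. For the WT 30C group the titles and descriptions conflict: the text with each of its 3 arrays gives 25C, and for array 1 it also calls the temperature permissive. The titles were followed, and the contrast was repeated with array 1 moved to 25C and without it.

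U2AF marks the end of an intron for the spliceosome. Its large subunit binds the pyrimidine-rich tract before the 3′ splice site, its small subunit, U2af38, binds the AG at the splice site itself, and together they bring in the U2 small nuclear ribonucleoprotein. A temperature-sensitive allele is one whose product works at a permissive temperature and loses function at a restrictive one, which makes the change in the mutant's difference between temperatures the comparison of interest.

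No probe set passed the interaction test. Of 13966 probe sets, 0 (0%) had a Benjamini-Hochberg adjusted p under 0.05 in limma, and the lowest adjusted p was 0.147. Without adjustment 1127 (8.07%) had p under 0.05, 525 (3.76%) with a positive and 602 (4.31%) with a negative value. Of the 24 alternative fits, the only one to make calls left out S284Y 25C array 1, and there 84 probe sets passed, 63 positive and 21 negative. The median standard error (SE) of an interaction value was 0.53 log2, and the median 95% interval reached 1.14 log2 to either side. The interval lay within 1 log2 (2-fold) of 0 for 2440 probe sets. For the others the interval reached beyond a 2-fold change in the genotype difference. Every value below is therefore a measurement that did not pass, unless it is said to have passed.

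The S284Y 25C arrays differed most among themselves. Correlations of log2 signals were 0.82 to 0.89 within that group and 0.95 to 0.96 within the other 3 groups. Signals of the 9 probe sets for bacterial RNA spiked into each hybridisation had a median ratio to WT 25C of 5.64 on S284Y 25C array 2 and 1.74 on array 3, against 0.60 to 1.05 on the other 10 arrays. Genes of the male accessory gland, which makes seminal fluid proteins, averaged 1.35 log2 above the mean of all arrays on S284Y 25C array 3, against -0.45 to 0.15 on the other 11 arrays. Cell cycle and replication genes averaged -1.26 log2 on that array. Leaving out arrays 2 and 3 of that group again gave 0 calls, with 1124 probe sets at an unadjusted p under 0.05. Markers of both sexes and of several organs were bright throughout: osk of the ovary read 3866 to 15443, Acp95EF of the accessory gland 9426 to 62365, the muscle gene Mlc2 15127 to 45873 and the photoreceptor gene Arr2 8018 to 13651.

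The genotype difference of the splicing factor gene itself was not detectably different between temperatures. U2af50 signals were 4743, 3723 and 6198 in S284Y at 25C and 4445, 5488 and 5549 in S284Y at 30C. In WT they were 4095, 4052 and 3792 at 25C and 3977, 4894 and 4451 at 30C. The groups overlap, and the interaction value was -0.05 ± 0.27 (SE; 95% interval -0.63 to 0.52). Its partner U2af38 gave -0.08 ± 0.30. These intervals leave out a 2-fold difference for both genes. The level of the gene does not check the genotype labels, since the mutant carries an altered protein rather than a deletion.

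Some genes differed strongly between genotypes at both temperatures. At an adjusted p under 0.05, 110 probe sets differed between genotypes at 25C and 213 at 30C. Of the 59 that passed at both temperatures, all 59 had the same sign. An unadjusted limma interaction p was under 0.05 for 10 of them, against 8.07% of all probe sets. Over the 264 probe sets that passed at either temperature, 237 had the same sign at both and the correlation of the paired differences was 0.758. Of these 264, 130 had an unadjusted limma interaction p under 0.05, against 8.07% of all probe sets. Passing at a single temperature itself favours a low interaction p, since both rest on the same differences. That count is therefore no evidence of temperature dependence. These probe sets were selected for a genotype difference, and over all probe sets the correlation was 0.246. Both correlations are descriptions across probe sets that share arrays. Uhg1, a host gene whose introns carry small nucleolar RNAs, read 15.9 to 56.7 on the 6 S284Y arrays and 1599 to 2163 on the 6 WT arrays. Its log2 difference was -5.78 at 25C and -5.07 at 30C, an interaction of 0.71 ± 0.50. The S284Y signals were near the 16 added before taking logs, so these log values depend on that offset, and the interaction ran from 0.47 to 1.01 over settings. LysC, a gut lysozyme that digests bacteria, differed by 4.64 at 25C and 4.97 at 30C (0.34 ± 0.42; 0.78 without S284Y 25C arrays 2 and 3). LysD, LysB and LysP had interaction values of -0.09, -0.12 and 0.23. The signs of all 3 turned under some settings. The mucin-related gene Mur2B differed by -4.59 and -4.13. The interval for Uhg1 ran from -0.36 to 1.79 and that for LysC from -0.56 to 1.24. Uhg1, Mur2B, LysD, LysB and LysP were chosen after their values were seen, and the LysB, LysC, LysD and LysE probe sets may each read several members of the family.

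**Figure D1:**
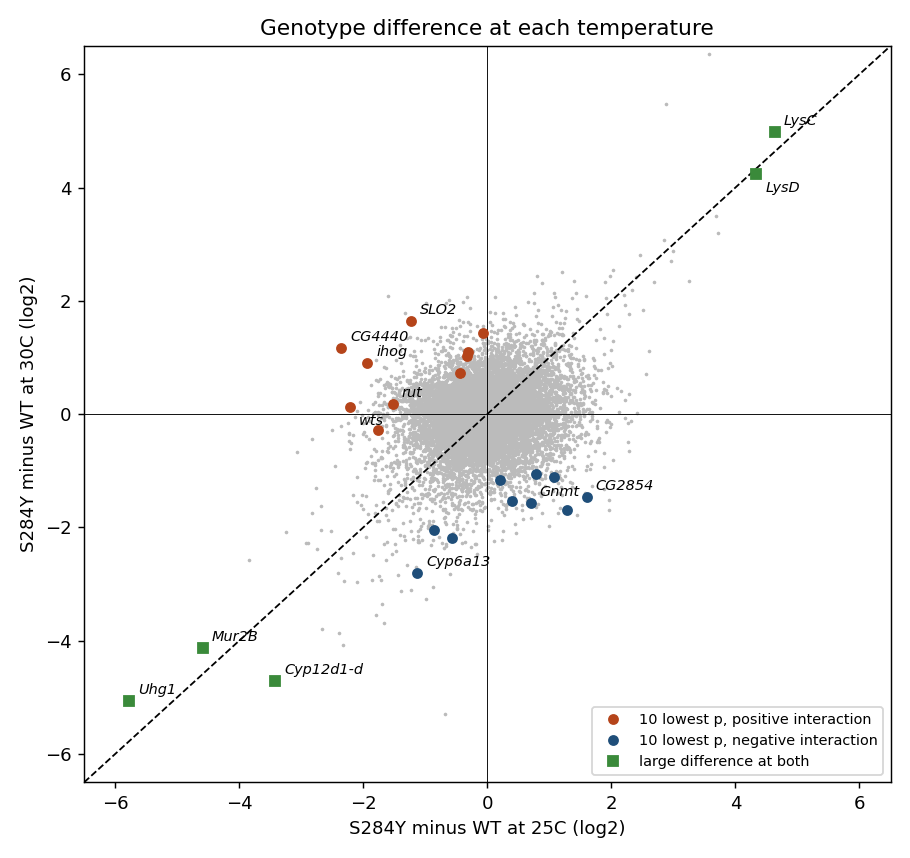
Difference between S284Y and WT (log2) at 25C (horizontal axis) and 30C (vertical axis) for 13966 probe sets (grey points), with the dashed line marking equal differences. Red and blue points are the 10 lowest p-values on each side among probe sets with 1 gene symbol and a brightest group mean at or above the 40th percentile, and green squares are 5 genes with large differences at both temperatures, of which Cyp12d1-d is farthest from the line.

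The 20 genes named by rule, the 10 lowest p-values in each direction among brighter probe sets with 1 gene symbol, had adjusted p from 0.147 to 0.387. All 20 had the same sign in the fit without S284Y 25C arrays 2 and 3. That fit reuses the remaining arrays, and the genes were picked by low p with all arrays, so this is no independent check. All 10 with a positive value were lower than WT at 25C, and 9 of them were higher than WT at 30C. All 10 with a negative value were lower than WT at 30C. Of these, 7 were higher than WT at 25C and 3 were lower at both temperatures. Opposite signs were common among all probe sets with an unadjusted limma p under 0.05. Of the 525 positive ones, 453 were lower than WT at 25C and higher at 30C. Of the 602 negative ones, 455 were higher than WT at 25C and lower at 30C. The interaction is the 30C difference less the 25C difference, so selecting probe sets by it favours opposite signs. These counts, and those of the 20 named genes, describe the selected probe sets and are no evidence of a reversal.

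Named genes with a positive value included several of cell signalling. Signals of wts, the Warts kinase of the Hippo growth-control pathway, were 167, 329 and 146 in S284Y at 25C and 858, 1180 and 1325 in S284Y at 30C. In WT they were 1126, 1113 and 777 at 25C and 966, 1209 and 888 at 30C. The S284Y 25C arrays were below all 9 others, and the remaining groups overlap. Its interaction was 2.34 ± 0.44 (95% interval 1.39 to 3.28, limma adjusted p = 0.263). Without arrays 2 and 3 it was 2.59, and it ran from 2.10 to 2.67 over all settings tried. A similar layout was seen for rut, a calcium-responsive adenylyl cyclase needed for learning, with 364, 593 and 266 in S284Y at 25C and 1305, 1028 and 1009 at 30C. WT signals of rut were 1118, 1283 and 1033 at 25C and 987, 862 and 1109 at 30C. Again only the S284Y 25C arrays stood apart (1.69 ± 0.38). The other rut probe set gave 0.55 ± 0.44. The TGF-beta family ligand gene mav read 570, 538 and 364 in S284Y at 25C against 1232 to 2149 on the other 9 arrays (1.5 ± 0.34).

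Other genes with a positive value were highest in S284Y at 30C. The gene ihog, for a Hedgehog co-receptor, read 174, 93.0 and 31.7 in S284Y at 25C and 674, 814 and 703 at 30C. Its WT signals were 245, 377 and 528 at 25C and 360, 398 and 391 at 30C. The mutant was thus below WT at 25C and above it at 30C on every array (2.84 ± 0.64; 1.91 without arrays 2 and 3). For dah, a membrane-associated protein needed for the actin furrows of the early embryo, S284Y signals were 3001, 1491 and 1772 at 25C and 4651, 4188 and 4705 at 30C. WT signals of dah were 2494, 2490 and 2478 at 25C and 2094, 2279 and 1941 at 30C. At 25C the genotypes overlap, and the interaction was 1.41 ± 0.31, or 0.83 without arrays 2 and 3. The autophagy gene Atg5 showed a value of 1.34 ± 0.31, with 1505 to 1539 in S284Y at 30C against 609 to 852 in WT at 30C. Mute, a protein of the histone locus body, gave 1.17 ± 0.28.

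In a further set the wild type carried most of the temperature difference. The NAD kinase gene Nadk1b averaged 1.28 log2 lower in WT at 30C than at 25C (580, 650 and 633 against 1512, 1427 and 1646), while S284Y signals overlapped between temperatures. Its interaction was 1.51 ± 0.36, and 0.94 without arrays 2 and 3. CG4440 signals in WT were 630, 576 and 824 at 25C and 65.0, 59.5 and 60.5 at 30C, while in S284Y they were 123, 178 and 72.5 and then 158, 309 and 76.4. Only the WT 25C arrays were high (3.52 ± 0.67). SLO2, a potassium channel gene, gave 2.86 ± 0.69 by the probe set with the lowest p, and 1.13 and -0.20 by its other probe sets.

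**Figure D2:**
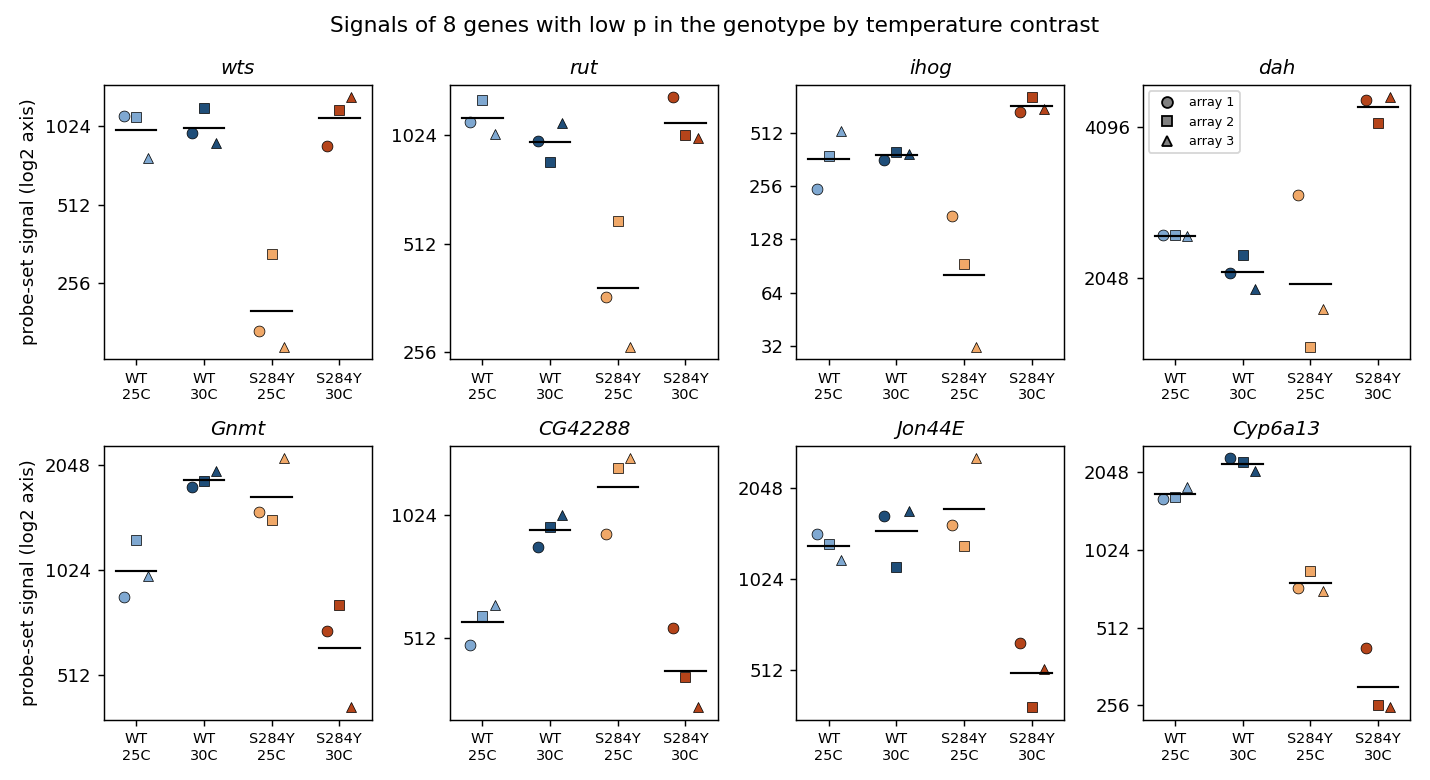
Probe-set signal (log2 axis) of 8 genes on each array, by genotype and temperature; symbols mark arrays 1, 2 and 3 and bars the mean of log2 signals. For wts and rut the S284Y 25C arrays lie below all others, for Gnmt and Jon44E the S284Y 30C arrays do, and Cyp6a13 is lower in S284Y at both temperatures.

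Named genes with a negative value included several enzymes. Signals of Gnmt, the glycine N-methyltransferase that uses up S-adenosylmethionine, were 1500, 1424 and 2145 in S284Y at 25C and 686, 811 and 414 at 30C. In WT they were 858, 1245 and 983 at 25C and 1778, 1843 and 1964 at 30C. The order of the genotypes was opposite at the 2 temperatures, with no overlap at either (-2.27 ± 0.36, 95% interval -3.06 to -1.49, limma adjusted p = 0.147; -2.13 without arrays 2 and 3). CG42288 followed the same layout, with 918, 1330 and 1407 in S284Y at 25C, 542, 413 and 347 in S284Y at 30C, 493, 579 and 617 in WT at 25C and 856, 955 and 1020 in WT at 30C (-2.19 ± 0.34; -1.81 without those arrays). CG2854 gave -3.07 ± 0.59 with signals under 500 on all arrays. CG32645 gave -2.96 ± 0.62 by the probe set with the lowest p and 0.85 ± 0.82 by its other one. The 3 that were lower in the mutant at both temperatures were the cytochrome P450 gene Cyp6a13, pyd3 of pyrimidine breakdown and CG5274. The signals of pyd3 in WT were 1419, 1184 and 1223 at 25C and 2877, 2715 and 2363 at 30C, while in S284Y they were 656, 848 and 1102 and then 808, 481 and 472. The WT arrays at 30C were above those at 25C, while the S284Y arrays overlapped between temperatures (-1.61 ± 0.35).

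Glycosidase and gut protease genes held the lowest medians among lists of 5 or more genes. In whole flies a group that reads lower can reflect less RNA per cell or fewer of the cells that make it, and these cannot be told apart. Among 19 glycosidase genes (maltases, amylases, tobi and lysosomal alpha-mannosidases), 16 had a negative value, against 49.4% of all probe sets, and the median was -1.11. The median over all 10844 genes was 0.01. List counts take 1 probe set a gene, while the shares beside them are of all probe sets. Over the 10844 genes, 49.7% of values were negative and 50.3% positive. An unadjusted limma p under 0.05 came with a negative value for 4.56% of these genes and with a positive value for 3.72%. Unadjusted p was under 0.05 with a negative value for 9 of the 19, against 4.31% of all probe sets, and 0 passed after adjustment. The median was -1.0 without arrays 2 and 3 of S284Y at 25C and ran from -1.18 to -0.78 over all settings. The mean level of the list, centred over the arrays, was 0.76 to 0.79 in WT at 25C, 0.48 to 0.54 in WT at 30C, -0.24 to 0.22 in S284Y at 25C and -1.35 to -1.14 in S284Y at 30C. The 4 groups did not overlap, in that order. The median member differed by -0.83 between genotypes at 25C and by -1.95 at 30C.

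Among the maltases, which split maltose and sucrose in the gut, Mal-A6 read 613, 1054 and 1464 in S284Y at 25C, and 420, 365 and 425 at 30C. Its WT signals were 1331, 1326 and 1488 at 25C and 1520, 1758 and 1543 at 30C. The mutant overlapped WT at 25C but not at 30C (-1.47 ± 0.37, limma adjusted p = 0.467; -0.80 without arrays 2 and 3). Mal-B2 signals in S284Y were 1235, 723 and 2612 at 25C and 689, 672 and 645 at 30C, against 2692 to 3532 in all WT arrays (-1.11 ± 0.47). Mal-A1 was lower than WT at both temperatures, by log2 differences of -0.90 and -1.5 (-0.61 ± 0.24), and Mal-A4 by -0.39 and -2.04 (-1.64 ± 0.67). Mal-B1 was dim throughout, with 17.5 to 20.9 in S284Y at 30C, at the level of the 16 added to each signal, so its value of -2.23 depends on that offset. Mal-A3 had a positive value (0.96 ± 0.67). The glycosidase gene tobi, a target of brain insulin signalling, read 290, 522 and 477 in S284Y at 25C and 99.1, 200 and 198 at 30C. Its WT signals were 1198, 1593 and 1380 at 25C and 1582, 2248 and 1545 at 30C. The mutant was below WT on every array, and further below at 30C (-1.66 ± 0.44).

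The lysosomal mannosidases trim sugar chains from glycoproteins. LManIII read 424, 397 and 266 in S284Y at 25C and 71.0, 8.30 and 18.5 at 30C. In WT it read 752, 549 and 708 at 25C and 357, 307 and 326 at 30C. Both genotypes were lower at 30C, the mutant near the added 16 (-2.17 ± 0.63). LManV (-1.37 ± 0.54) and LManVI (-1.75 ± 0.94) were also lower than WT at both temperatures, with log2 differences of -1.30 and -2.67 for LManV and of -2.33 and -4.09 for LManVI. Without S284Y 25C arrays 2 and 3 the interaction was -2.11 for LManV and -3.06 for LManVI. The other, dim probe set of LManV gave 0.21 ± 0.81. The starch-splitting amylase Amy-d differed in another way, with 17075, 27580 and 44470 in S284Y at 25C and 11744 to 15383 on the other 9 arrays (-1.09 ± 0.38; -0.40 without arrays 2 and 3). Mal-A1, Mal-A3, Mal-A4, Mal-B2, LManV, LManVI and Amy-d were chosen after their values were seen.

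**Figure D3:**
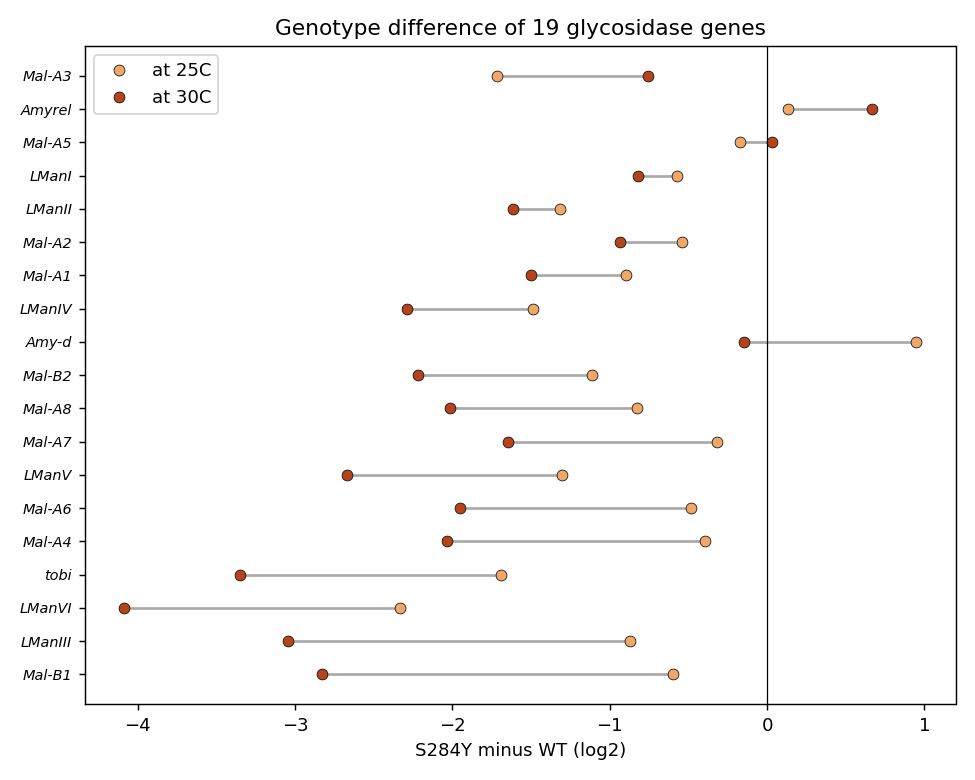
Difference between S284Y and WT (log2, horizontal axis) at 25C (light points) and 30C (dark points) for each of 19 glycosidase genes, ordered by interaction value with its sign. In 16 genes the 30C point lies to the left of the 25C point.

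Gut serine proteases had negative values in 23 of 28 genes, against 49.4% of all probe sets, with a median of -0.59 (-0.40 without arrays 2 and 3; -0.79 to -0.39 over all settings). Unadjusted p was under 0.05 with a negative value for 8 of them and with a positive value for 0, against 4.31% and 3.76% of all probe sets. Jon44E read 1555, 1324 and 2581 in S284Y at 25C and 631, 386 and 516 at 30C. Its WT signals were 1446, 1339 and 1188 at 25C and 1654, 1129 and 1727 at 30C. Only the S284Y 30C arrays stood apart (-1.93 ± 0.39, limma adjusted p = 0.302). Jon99Fi signals were 22874, 27157 and 43944 in S284Y at 25C, above all others, and 11664, 9596 and 7568 in S284Y at 30C, below all others (-1.84 ± 0.36). The trypsin gene thetaTry read 1338, 1118 and 1305 in S284Y at 30C against 2080 to 3482 on the other 9 arrays (-0.91 ± 0.26). Jon25Bii gave -1.21 ± 0.29, and Jon25Bi -1.36 ± 0.51. Jon65Ai had its difference at 25C (1.25) rather than at 30C (0.04). Jon25Bi and Jon65Ai were chosen after their values were seen. S284Y 25C array 3 had the highest mean of this list, 0.71, against 0.21 on array 1 and 0.50 on array 2. Among 7 lysozyme genes, by contrast, 3 were positive and 4 negative, with a median of -0.09. Without S284Y 25C arrays 2 and 3, 6 were positive and 1 negative, with a median of 0.69.

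Detoxification genes leaned to negative values. Of 81 cytochrome P450 genes, which oxidise hormones and foreign compounds, 55 had a negative value, against 49.4% of all probe sets, with a median of -0.28 that moved little without arrays 2 and 3 (-0.35; -0.37 to -0.21 over all settings). Unadjusted p was under 0.05 for 13 with a negative and 1 with a positive value, against 4.31% and 3.76% of all probe sets. Cyp6a13 read 731, 846 and 712 in S284Y at 25C and 425, 257 and 251 at 30C. Its WT signals were 1622, 1640 and 1804 at 25C and 2327, 2256 and 2072 at 30C. No groups overlap: the mutant was lower at 30C and the wild type higher (-1.68 ± 0.30, limma adjusted p = 0.263). Cyp4e3 (-2.27 ± 0.54) and Cyp6a8 (-1.73 ± 0.48) were also lower than WT at both temperatures, with log2 differences of -0.99 and -3.26 for Cyp4e3 and of -1.40 and -3.13 for Cyp6a8. Cyp309a2 differed by -0.37 at 25C and by -2.26 at 30C. Cyp12d1-d showed another layout, with 104 to 253 on all 6 S284Y arrays, 1964, 2139 and 2251 in WT at 25C and 5227, 5432 and 3678 in WT at 30C. From 25C to 30C it differed by -0.14 in S284Y and by 1.15 in WT (-1.29 ± 0.42). The only gene with a positive value and an unadjusted limma p under 0.05 was Cyp6a23 (1.05 ± 0.35). In all, 26 of the 81 had a positive value, up to 1.62 for Cyp4e1. Cyp12d1-d and Cyp6a23 were chosen after their values were seen. Glutathione transferases, which couple glutathione to toxins, had a median of -0.18 over 34 genes. Of these, 21 were negative, against 49.4% of all probe sets, and 13 were positive, with values up to 1.12. Unadjusted limma p was under 0.05 for 3 with a negative and 0 with a positive value, against 4.31% and 3.76% of all probe sets. GstE9 was at -0.90 and GstE6 at -1.12, and without S284Y 25C arrays 2 and 3 at -0.76 and -0.66.

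Fat body and lipid genes had a negative value in 19 of 27, against 49.4% of all probe sets, with a median of -0.37 (-0.25 without arrays 2 and 3). Without S284Y 25C array 3 alone it was -0.23. Mean levels of the list were 0.15 to 0.32 on the 6 WT arrays, -0.05 to 0.01 in S284Y at 25C and -0.46 to -0.35 in S284Y at 30C, with no overlap between the genotypes or between the S284Y groups. The lipid droplet protein Lsd-1 gave -1.20 ± 0.35, the lipase Lip3 -2.11 ± 0.67, Pepck1 of gluconeogenesis -0.69 ± 0.28 and the storage protein Lsp2 -0.64 ± 0.35. Without arrays 2 and 3 Lsd-1 was -0.70, Lip3 -1.21, Pepck1 -0.95 and Lsp2 -1.21. Genes of glycolysis and the TCA cycle had a median of -0.10 over 19. An unadjusted limma p was under 0.05 for 0 of them, against 8.07% of all probe sets. For a list this short, 0 lies near that share.

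Respiratory chain subunits, which build the mitochondrial complexes of oxidative phosphorylation, had a negative value in 50 of 56 genes, against 49.4% of all probe sets, with a median of -0.47. It was -0.24 without arrays 2 and 3 of S284Y at 25C and -0.23 without array 3 alone, and with all arrays 9 members had a negative value and an unadjusted p under 0.05, against 4.31% of all probe sets. The mean of the list on S284Y 25C array 3 was 0.71, against 0.14 and 0.15 on arrays 1 and 2, and it was -0.56 to -0.24 in S284Y at 30C. COX7B gave -1.06 ± 0.38 and ND-B14.5A -0.95 ± 0.35, or -0.58 and -0.55 without arrays 2 and 3. Mitochondrial ribosomal proteins had a median of -0.25 over 66 genes, which was -0.05 without array 3.

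Cell cycle, replication and ovary genes lay on the positive side. Of 43 cell cycle and replication genes 42 had a positive value, against 50.6% of all probe sets, with a median of 0.63, and 6 had a positive value and an unadjusted p under 0.05, against 3.76% of all probe sets. The median was 0.29 without S284Y 25C array 3 and 0.24 without arrays 2 and 3. List means were 0.30 to 0.49 in S284Y at 30C and -0.06 to 0.09 on the 6 WT arrays, while the S284Y 25C arrays read 0.13, 0.02 and -1.26. Incenp, of the chromosomal passenger complex, gave 1.0 ± 0.34 (0.99 without arrays 2 and 3), and the replication protein RPA1 gave 0.92 ± 0.34 (0.43) by its brightest probe set and 0.37 by its other. The mitotic regulator fzy gave 0.87 ± 0.34 (0.56). Ovary and germline genes were positive in 35 of 46, with a median of 0.45 that was 0.24 without array 3 and 0.15 without arrays 2 and 3. On array 3 the mean of this list was -0.87 while that of accessory gland genes was 1.35. The part of the makeup of that pool in these results was not tested. The early activator zld gave 2.16 ± 0.64 and 1.93 without arrays 2 and 3, and the germ plasm gene osk 1.02 ± 0.36 and 0.46.

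Among reproductive genes of the other kinds, testis genes had a median of -0.36 over 50 and accessory gland genes of -0.44 over 19. Without S284Y 25C array 3 they were -0.13 and 0.22. Yolk and eggshell genes had a median of -0.24 over 19, and of 0.04 without S284Y 25C array 2, on which the list averaged 1.17. The eggshell gene Femcoat read 1227, 817 and 685 in S284Y at 30C against 1779 to 2309 on the other 9 arrays (-1.10 ± 0.29; -1.14 without arrays 2 and 3). The vitelline membrane gene Vm26Ac gave -1.18 ± 0.32 and -0.70 without them.

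**Figure D4:**
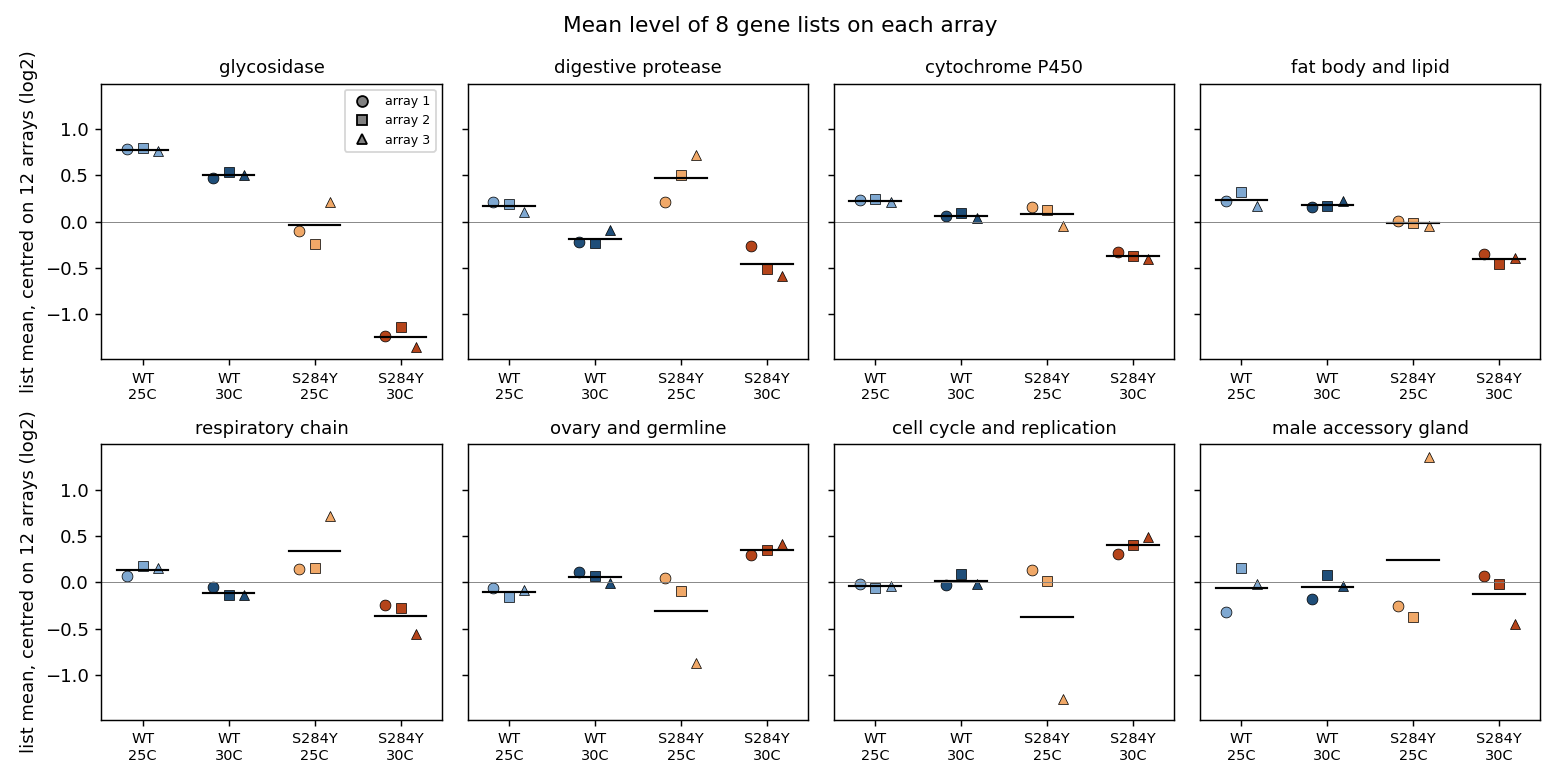
Mean log2 level of 8 gene lists on each array, centred on the mean of the 12 arrays, by genotype and temperature; symbols mark arrays 1, 2 and 3 and bars the group mean. Glycosidase, P450 and fat body genes are lowest on all 3 S284Y 30C arrays, while ovary, cell cycle and accessory gland genes have one S284Y 25C array far from the other 2.

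Splicing gene values ran from -0.59 to 1.01 among early spliceosome genes and from -0.37 to 1.09 among SR and hnRNP genes. Of 22 early spliceosome genes 9 were positive and 13 negative, with a median of -0.07 that changed sign under some settings (-0.11 to 0.11). An unadjusted limma p was under 0.05 for 0 of them, against 8.07% of all probe sets. For a list this short, 0 lies near that share. Sf3a1 and SmB had the lowest p, with 0.61 ± 0.31 and -0.53 ± 0.29, or 0.22 and -0.06 without S284Y 25C arrays 2 and 3. Of 18 SR and hnRNP genes, the regulators of splice site choice, 16 were positive, against 50.6% of all probe sets, with a median of 0.36. Unadjusted limma p was under 0.05 with a positive value for 1 of them, against 3.76% of all probe sets. Without S284Y 25C arrays 2 and 3 the list had 12 positive and 6 negative values and a median of 0.15. The median was 0.19 without array 3 alone. The polypyrimidine tract binding protein gene heph gave 1.09 ± 0.38 (0.60 without arrays 2 and 3) by its brightest probe set and 0.31 ± 0.39 by its other. Genes of mRNA export and decay had a median of 0.16 over 15.

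Inducible heat-shock genes had values from -0.35 to 0.46. Of 6 measured heat-shock genes of the inducible kind 3 were positive and 3 negative. An unadjusted limma p was under 0.05 for 0 of them, against 8.07% of all probe sets. For 6 genes, 0 lies near that share. Hsp68 read 326, 393 and 312 in S284Y at 30C and 59.3, 367 and 314 in WT at 30C. At 25C it read 466, 388 and 489 in S284Y and 347, 366 and 291 in WT. WT 30C array 1, the one with the permissive wording in its description, was the lowest of the 12. Its interaction of 0.36 ± 0.71 turned to -0.39 without that array and to -0.94 with it moved to 25C. Antimicrobial and immune genes were negative in 15 of 19, against 49.4% of all probe sets, with a median of -0.54 (-0.27 without arrays 2 and 3, and -0.32 without WT 30C array 3). The antibacterial peptide gene CecB gave -2.84 ± 0.98 (-3.55 to -2.01 over settings), but it read 16.8 to 64.4 in S284Y at 30C, close to the offset of 16, on which the value therefore depends. PGRP-SC2, a peptidoglycan-cleaving enzyme of the gut, gave -1.15 ± 0.33, or -0.58 without arrays 2 and 3. The receptor gene Tl gave 1.30 ± 0.45, or 0.37 without them.

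**Figure D5:**
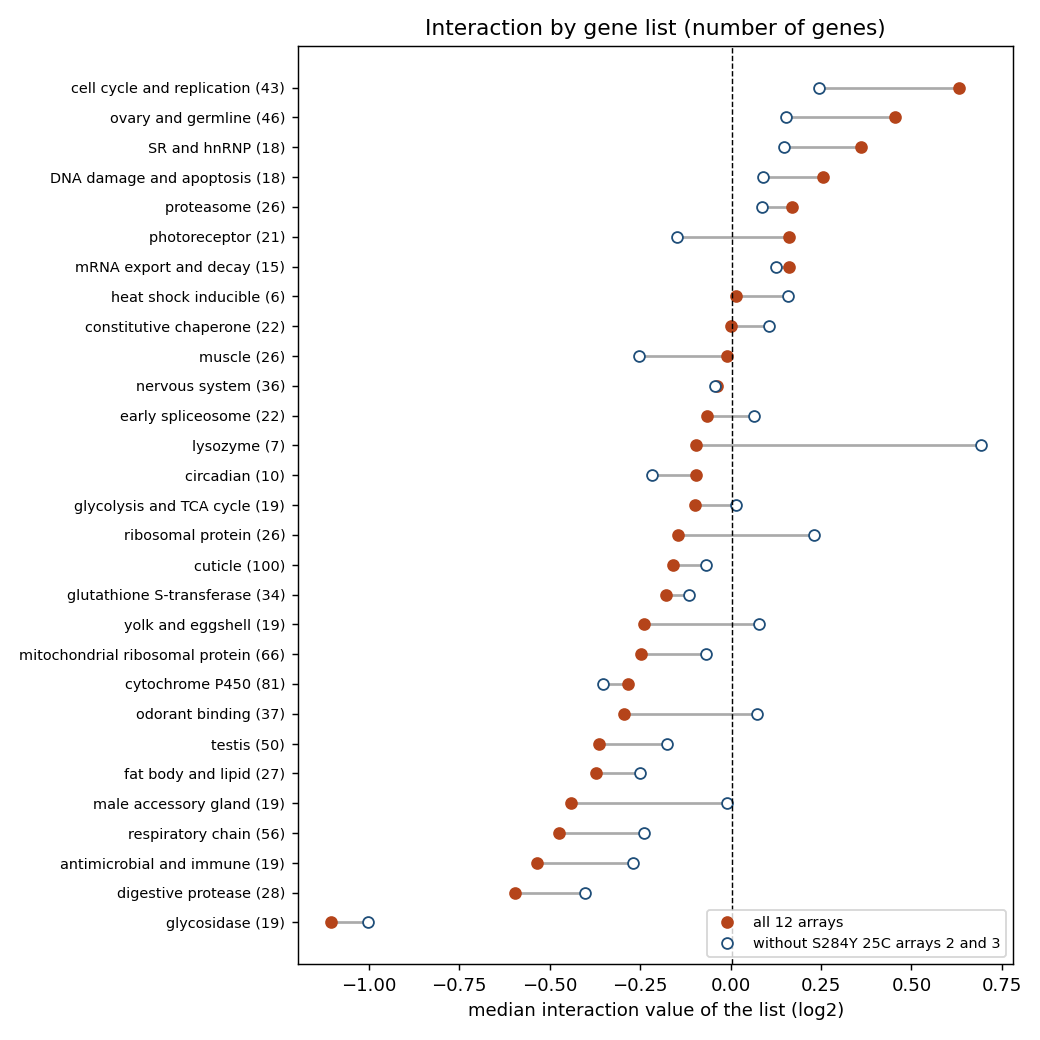
Median interaction value (log2) of each gene list with 5 or more measured genes, from all 12 arrays (filled) and without S284Y 25C arrays 2 and 3 (open); the dashed line is the median over all genes. Glycosidase genes stay near -1 in both, while cell cycle, ovary and accessory gland genes move toward the line.

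The 84 probe sets that passed without S284Y 25C array 1 were called with arrays 2 and 3 alone standing for that group. All 84 had the same sign in the fit of all arrays, and 70 did when array 1 was instead the only S284Y 25C array. Both fits share arrays with the one that made the calls, so neither count is an independent check. Their median size in the passing direction was 1.91 without array 1, 1.46 with all arrays and 0.37 with array 1 alone. Among the named genes, dah, ihog, Nadk1b, CG42288, Gnmt, Cyp6a13, Jon99Fi, pyd3, Mal-A6, Amy-d, Tl, PGRP-SC2, Vm26Ac and the cuticle gene Ccp84Ae passed in that fit, with limma adjusted p from 0.0349 to 0.0484. In that fit 84 of all 13966 probe sets passed. These named genes had been picked by low p with all arrays or after their values were seen. The fit reuses most of the same arrays, so their passing is no independent check. The spike signals of arrays 2 and 3 given above stand beside the calls of that fit, and their part in them was not tested.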

How the data were processed

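The members and gene lists were chosen with earlier results of these data known. The deposited values are intensity, linear signals with 1 value per Affymetrix probe set and array; the sources used here do not say how the authors made them. From the values, each array had been scaled: 2% trimmed means were 1000.12 to 1000.18, so no further scaling was done. Median signals still differed, with 401 on S284Y 25C array 3 and 546 on S284Y 25C array 2, against 474.5 to 511.8 on the other arrays. Of 14010 probe sets 44 controls were left out and 13966 tested. 1 gene symbol was attached to 12443 of these, several to 327 and none to 1196, and 12394 were updated by Entrez number through RefSeq. No probe set was called absent, since detection calls were not analysed here.

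Log2(signal + 16) was fitted with limma 3.58.1 in R 4.3.3 (4 group means on 12 arrays, no block, eBayes with trend, prior degrees of freedom 4.83), with Benjamini-Hochberg adjustment over all probe sets and a threshold of 0.05. The 16 damps differences between dim probe sets. The script was tested on simulated data. The number of arrays limits precision. Lists (1 probe set a gene, the brightest) are described by counts and medians, without a set test. Named genes were, per direction, up to 15 past the threshold, filled to 10 by lowest p where fewer passed, with 1 symbol and a brightest group mean at or above the 40th percentile (8.30 log2); U2af50 and U2af38; and up to 4 members of lowest p per list with 5 or more genes.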

Additional observations from a re-analysis of the deposited data

Results flagged for a closer look

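The hybridisation spike probe sets lie outside the tested probe sets and were far brighter on arrays of 1 group. The median ratio of the 9 spike signals to the WT 25C median was 5.64 on S284Y 25C array 2 and 1.74 on S284Y 25C array 3, against 0.60 to 1.05 on the other 10 arrays. S284Y 25C array 1 read 0.74. The 3′ to 5′ signal ratio of the GAPDH control was 5.05 on array 2 and 3.38 on array 3, against 2.29 to 3.30 on the others. That of the actin control did not stand apart: it was 2.25 on array 2 and 2.81 on array 3, against 2.04 to 3.18 on the others.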

How the results depend on the processing

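The counts of interaction calls, 151 named genes and probe sets and 31 list medians were recomputed under 24 alternatives, while the counts and correlations of genotype differences were not: the offset, median centring, quantile normalization, a filter on dim probe sets, 2 other settings of eBayes, array weights, the replicate block, leaving out S284Y 25C arrays 2 and 3, WT 30C array 1 moved to 25C, each array left out in turn, and, chosen after seeing the data, array weights without S284Y 25C arrays 2 and 3. Leaving out 1 array gave 0 to 84 calls, 0 to 63 positive and 0 to 21 negative, all of them without S284Y 25C array 1, and the other alternatives gave 0. Probe sets at an unadjusted p under 0.05 ran from 746 without S284Y 30C array 3 to 2501 without S284Y 25C array 1. Replicate numbers did not pair the arrays (correlations of deviations -0.131 to 0.062 over 18 pairs of equal number), and with the replicate block the count of calls was 0 and that at an unadjusted p under 0.05 was 1034. Under median centring 599 positive and 564 negative values had an unadjusted p under 0.05.

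Signs reversed for 10 genes, none of which passed. U2af50 was 0.0307 under quantile normalization and 0.0308 with array weights. Under quantile normalization LysE, LysD and LysB were 0.30, 0.67 and 0.56. Without S284Y 25C arrays 2 and 3 LysE, LysD, LysB, Hrb87F and l(2)efl were 0.44, 0.76, 0.69, -0.0189 and 0.0444, and with array weights added 0.42, 0.70, 0.67, -0.0364 and 0.0742. With WT 30C array 1 moved Hsp68 was -0.94. Leaving out 1 array at a time, U2af50 ran from -0.23 to 0.14, U2af38 from -0.28 to 0.10, Hsp68 from -0.39 to 0.78, LysE from -0.62 to 0.17, LysD from -0.52 to 0.54, LysB from -0.52 to 0.45, Mur2B from -0.0682 to 0.99 and LysP from -0.028 to 0.56. The cause was not tested.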

Other observations

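Among lists not described above, single genes had values far from their list's median. The cuticle gene Cpr47Ef gave 2.37 ± 0.63 (2.06 without arrays 2 and 3 of S284Y at 25C), while the median of 100 cuticle genes was -0.16. The odorant-binding protein genes Obp99d and Obp83cd gave 2.65 ± 0.75 and -1.91 ± 0.51, with a median of -0.29 over 37 genes. Obp99d read 11.5 to 17.7 in S284Y at 25C, at the level of the added 16, so its value depends on that offset (1.46 to 3.76 over settings). The odorant list was 0.07 without arrays 2 and 3. The eye-specific protein kinase C gene inaC gave 1.79 ± 0.63 and the dopamine transporter gene DAT 2.01 ± 0.77 (1.91 and 1.21 without those arrays), while the photoreceptor and nervous system lists had medians of 0.16 over 21 genes and -0.04 over 36. Cytosolic ribosomal proteins had a median of -0.15 over 26 genes, and 0.23 without arrays 2 and 3. Muscle genes had a median of -0.01 over 26, proteasome subunits of 0.17 over 26, DNA damage and apoptosis genes of 0.25 over 18 and circadian genes of -0.10 over 10. None of the genes named here passed the adjusted threshold of 0.05 in limma with all arrays.

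One probe set with no gene name here was chosen after its value was seen. Its signals were 6211, 6014 and 9112 in WT at 30C, against 493 to 1461 in WT at 25C, 314, 1226 and 418 in S284Y at 25C and 197, 56.6 and 356 in S284Y at 30C. Only the WT 30C arrays were high. The interaction was -4.61 ± 0.84 (limma adjusted p = 0.263), and ran from -5.14 to -3.84 over all settings.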
